A study of Mus musculus with 6 samples.

Results

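The Serpin family was examined across the adult olfactory epithelium of NMRI mice, in NKCC1-/- animals (KO) and in wild-type animals (WT). Members were all genes of the deposited expression table whose symbol is Serpin followed by a clade letter from a to i and a digit, which gave 63 of 21881 genes. NKCC1, encoded by Slc12a2, carries sodium, potassium and chloride into cells and loads olfactory neurons with chloride. How the NKCC1-/- allele was made is not given in the sources used here, and no treatment is named for either genotype. Each genotype had 3 RNA-seq libraries, 1 from a mixed pool with 2 epithelia of each sex, 1 from a male pool of 3 mice and 1 from a female pool of 3 mice. The study's title asks how NKCC1 bears on the formation of olfactory neurons, and the comparison of KO with WT bears on which transcripts differ without the transporter.

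Serpins are a family of structurally alike proteins, most of which inhibit proteases. An exposed reactive centre loop acts as bait, and a protease that cuts it is trapped in a covalent complex. Clade a holds secreted plasma proteins such as alpha-1 antitrypsin and its antichymotrypsin-like relatives, clade b the serpins that mostly stay inside cells, and clade e the inhibitors of plasminogen activators and thrombin. Some members inhibit no protease, such as Serpinh1, the chaperone of collagen, and Serpina6 and Serpina7, which carry hormones in the blood. In the nose, secretions of glands and of the surface epithelium hold antiproteases that limit damage by the proteases of leukocytes.

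Levels are FPKM, fragments scaled to transcript length and to the fragments mapped in the library. This scaling puts genes of different length on 1 scale. A nuclease step before sequencing lowered the most abundant transcripts, so levels compare only roughly between genes. Shares of summed FPKM and ranks by abundance below, such as those of Serpine2 and Serpina3n, describe these libraries and need not match the tissue. Depth was estimated from the FPKM worth of 1 fragment at 3900000 fragments for the KO mixed library and 3500000 for the WT mixed library, and at 11200000 to 14800000 for the other 4. Slc12a2 had 28.0, 16.1 and 18.0 FPKM in KO libraries (mixed, male, female), against 83.3, 40.2 and 35.99 FPKM in WT libraries (mixed, male, female). The groups did not overlap, and the log2 change of -1.26 ± 0.32 (SE) had an adjusted p of 0.11 in limma. The mature olfactory neuron markers, 15 of 15 of them detected, mark the tissue as labelled, and their summed level was 4080 to 5792 FPKM in KO and 6972 to 11038 FPKM in WT libraries. The median log2 ratio of KO over WT over all genes was -0.25 for mixed, -0.20 for male and 0.48 for female pools, so a gene higher in KO in the female pools alone followed most genes there.

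Of the 63 Serpin genes, 17 were listed at 0 in every library, 23 more had a mean under 0.5 FPKM, and 23 reached that mean and were tested. Nearest to this limit were Serpina3i above it, with a mean of 0.597 FPKM, and Serpina1a below it, with 0.2997 FPKM. Serpina1a had 0.334 (mixed), 0.244 (male) and 0.282 (female) FPKM in KO libraries, against 0.358 (mixed), 0.226 (male) and 0.355 (female) FPKM in WT libraries, with full overlap. Serpina3i and Serpina9 reached it through the KO libraries alone, so the counts and medians over the tested genes below describe those genes and not the whole family. The genes listed at 0 in every library were Serpina3a, Serpina3b, Serpina3c, Serpina3j, Serpina3k, Serpina4-ps1 and Serpina5 of clade a, Serpinb3b, Serpinb6d, Serpinb6e, Serpinb9c to Serpinb9g and Serpinb13 of clade b, and Serpini2. A value of exactly 0 can also come from an estimate that failed. Several serpins of blood plasma were near the floor: Serpinc1 (antithrombin), Serpind1 (heparin cofactor), Serpinf2 (antiplasmin), Serpina6 and Serpina10 had means from 0.0138 to 0.201 FPKM. In the KO libraries all Serpin genes together summed to 858.5 ± 210 FPKM and in the WT libraries to 777 ± 139 FPKM (SD, n = 3 each), with an exact two-sided permutation p of 0.6.

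**Figure D1:**
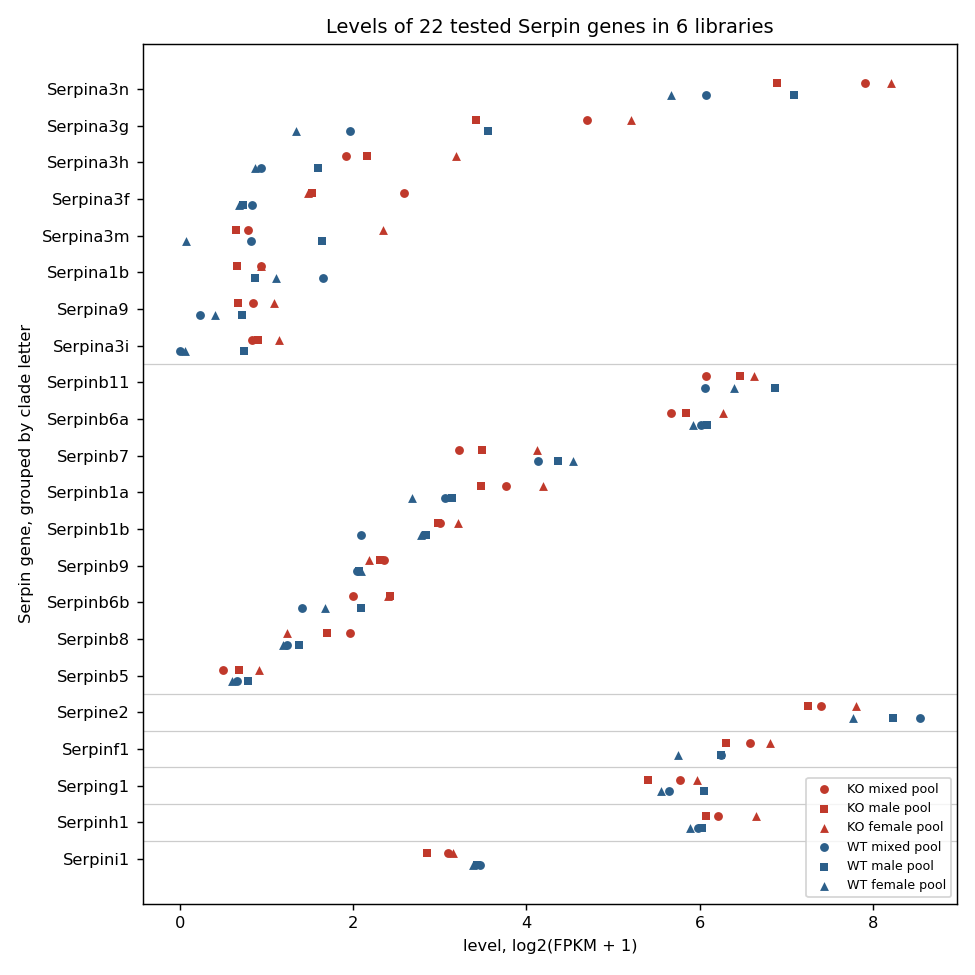
Level of 22 of the 23 tested Serpin genes as log2(FPKM + 1), by clade letter; each symbol is 1 library, red for KO and blue for WT, with the kind of pool given by its shape. Serpine2 and Serpina3n lie furthest to the right, and the KO libraries of Serpina3f, Serpina3h, Serpina3i and Serpinb1a all lie to the right of their WT libraries.

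No Serpin gene passed when the 3 KO libraries were compared with the 3 WT libraries without a term for the pool. The test was limma on log2(FPKM + 1) over 15067 genes, with Benjamini-Hochberg adjustment over all of them. Of all genes, 0.836% had an adjusted p under 0.05 (0.212% higher and 0.624% lower in KO), and 0 of the 23 Serpin genes did, with 0.094 as their lowest adjusted p. With the female share of the pool as a covariate 209 of the 15067 genes passed. Among them were 2 Serpin genes, Serpina3g (limma adjusted p = 0.0049) and Serpina3n (limma adjusted p = 0.039). An unadjusted p under 0.05 was found for 8 of the 23 and for 8.88% of all genes. Of these, 6 Serpin genes were higher in KO (4.26% of all genes were) and 2 were lower (4.62% of all genes were). The 6 were Serpina3f, Serpina3g, Serpina3h, Serpina3i, Serpina3n and Serpinb1a, and the 2 were Serpinb7 and Serpine2. The 3 KO libraries all lay above the 3 WT libraries for 8 of the 23 genes (7.46% of all genes) and all below for 2 (5.24% of all genes). Of the 23 changes 16 were positive and 7 negative, with a median of 0.37 on the log2 scale, where the median of all genes tested was 0.01. With no filter beyond a mean above 0 the median of 46 Serpin genes was 0.024, against 0.013 for all genes. In 12 of the 23 genes the highest of the 6 libraries was the KO female library. In the female pools KO lay above WT for 87.3% of all genes. For 12 of the 23 the 95% interval of the change lay within log2 -1 to 1. The share of all genes was not computed for either of these counts.

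**Figure D2:**
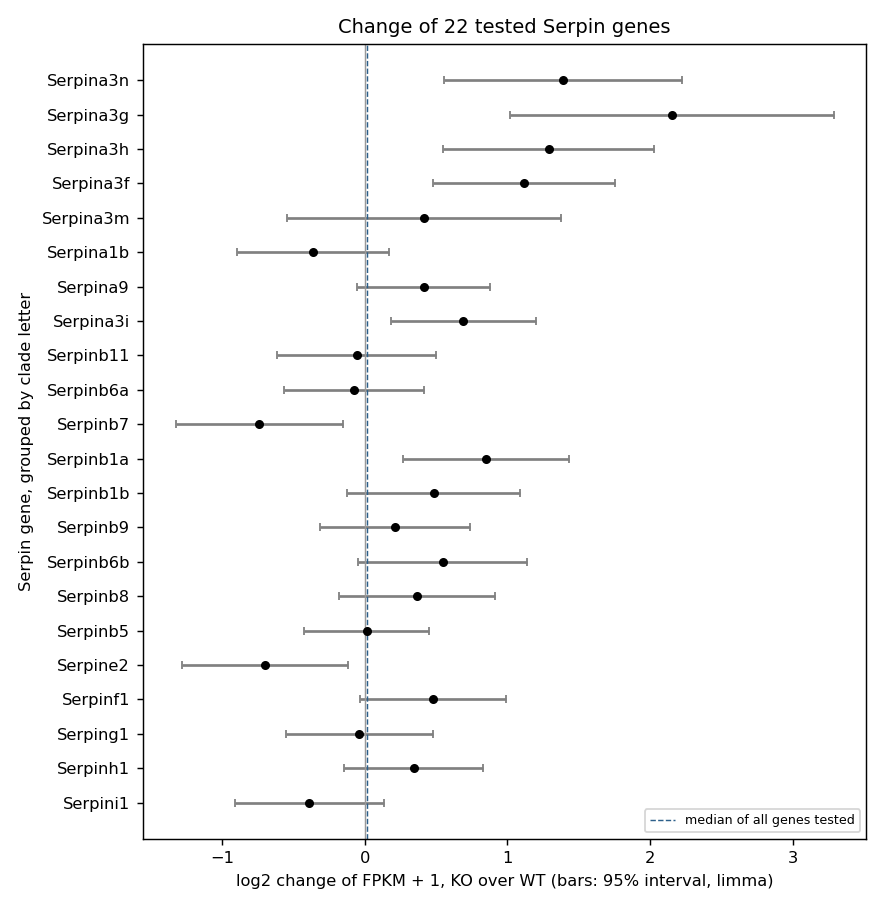
Change of 22 of the 23 tested Serpin genes in KO over WT on the log2(FPKM + 1) scale, with 95% intervals from limma; the dashed line is the median of all genes tested. The intervals of Serpina3n, Serpina3g, Serpina3h, Serpina3f, Serpina3i and Serpinb1a lie above 0 and those of Serpinb7 and Serpine2 below it.

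In clade a, 5 of the 8 tested genes had an unadjusted p under 0.05, all of them Serpina3 genes with a positive change. Serpina3 genes are the mouse counterparts of human alpha-1 antichymotrypsin, multiplied in the mouse into a run of neighbouring genes on chromosome 12. In the RefSeq annotation of GRCm38.p6, 10 coding Serpina3 genes follow each other there with 0 coding genes of another family between them. Of the 11 Serpina3 genes in the table, 6 were tested and 5 were listed at 0 in every library. The 250 bases upstream of the RefSeq transcript start are shown for 4 of the tested genes and for Serpina3c, a neighbour listed at 0, because these genes differ so widely in level. The promoters of Serpina3h and Serpina3m are not shown. Sequences are RefSeq's, build GRCm38.p6, and run 5′ to 3′ along the gene's own strand.
Serpina3n, chr12:104406458-104406707, plus strand: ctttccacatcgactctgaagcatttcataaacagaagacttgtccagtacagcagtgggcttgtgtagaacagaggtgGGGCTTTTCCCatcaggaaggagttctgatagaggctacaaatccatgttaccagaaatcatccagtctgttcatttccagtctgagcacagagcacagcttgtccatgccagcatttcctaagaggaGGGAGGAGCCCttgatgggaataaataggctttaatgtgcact
Serpina3c, chr12:104153873-104154122, minus strand: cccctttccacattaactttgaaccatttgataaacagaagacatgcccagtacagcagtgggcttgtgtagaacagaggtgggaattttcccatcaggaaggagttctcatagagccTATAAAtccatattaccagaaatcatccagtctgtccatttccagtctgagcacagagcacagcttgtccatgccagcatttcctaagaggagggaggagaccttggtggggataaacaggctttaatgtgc
Serpina3g, chr12:104235897-104236146, plus strand: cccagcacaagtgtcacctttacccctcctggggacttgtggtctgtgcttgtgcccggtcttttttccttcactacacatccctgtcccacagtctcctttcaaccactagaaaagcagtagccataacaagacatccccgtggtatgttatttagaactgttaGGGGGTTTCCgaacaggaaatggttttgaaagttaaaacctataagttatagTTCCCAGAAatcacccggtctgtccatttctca
Serpina3f, chr12:104214294-104214543, plus strand: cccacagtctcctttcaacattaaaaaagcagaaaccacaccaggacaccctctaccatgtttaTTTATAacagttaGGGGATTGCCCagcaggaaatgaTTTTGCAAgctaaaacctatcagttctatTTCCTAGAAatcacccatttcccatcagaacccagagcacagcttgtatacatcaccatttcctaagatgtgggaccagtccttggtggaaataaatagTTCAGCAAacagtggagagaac
Serpina3i, chr12:104262872-104263121, plus strand: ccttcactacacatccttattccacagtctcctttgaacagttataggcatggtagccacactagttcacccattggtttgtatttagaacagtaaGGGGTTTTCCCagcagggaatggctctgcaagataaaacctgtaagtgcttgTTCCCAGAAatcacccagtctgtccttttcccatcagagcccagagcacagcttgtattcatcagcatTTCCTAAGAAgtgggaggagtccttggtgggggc
Capitals mark matches on either strand to TTCNNNGAA and TTCNNNNGAA (STAT-like), GGGNNNNNCC (NF-kB-like), TTGCNNAA (C/EBP-like) and TGANTCA (AP-1). They also mark the letters TATAAA, found 132 to 127 bases upstream of the start in Serpina3c. In Serpina3f these letters lay 186 to 181 bases upstream, on the other strand. Overlapping matches run together. Serpina3f, Serpina3g and Serpina3i each held TTCNNNGAA, which 7.02% of all 32851 RefSeq promoter windows of this length held. Serpina3g and Serpina3i had the stretch TTCCCAGAAatcaccc there, Serpina3f had TTCCTAGAAatcaccc, and Serpina3n and Serpina3c had ttaccagaaatcatcc with no match. GGGNNNNNCC was found in the windows of Serpina3f, Serpina3g, Serpina3i and Serpina3n and in 45.8% of all windows. RefSeq gives another start of Serpina3f, not shown, whose window held TTCNNNGAA and TTGCNNAA but neither GGGNNNNNCC nor TATAAA. The windows of Serpina3n and Serpina3c were 90.5% identical in an alignment of windows that each end at the gene's own annotated start, while Serpina3n was the second most abundant Serpin gene and Serpina3c was listed at 0 in all 6 libraries. TTCNNNNGAA, TTGCNNAA, TGANTCA and TATAAA occurred in 5.85, 9.56, 6.75 and 12.4% of all windows. A match describes letters and shows no binding.

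Serpina3n, a secreted inhibitor of leukocyte proteases and an acute-phase gene, was the most abundant of clade a. It had 240 (mixed), 117 (male) and 294 (female) FPKM in KO libraries, against 66.1 (mixed), 136 (male) and 49.8 (female) FPKM in WT libraries. The KO mixed and female libraries stood above all others, while the KO male library lay below the WT male library, so the groups overlapped. Its log2 change was 1.39 ± 0.38 (SE), with an adjusted p of 0.15 (limma). Relative to WT, the KO level was 363% in mixed, 86.5% in male and 590% in female pools. Serpina3n made up 87.7% of the summed FPKM of the Serpina3 genes, which was 251 ± 107 in KO and 92.1 ± 52.7 in WT (SD, n = 3 each), with an exact two-sided permutation p of 0.2.

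Serpina3g, a serpin that stays inside the cell and inhibits lysosomal cathepsins, had the largest change of the 23 tested Serpin genes. Its levels were 25.1 (mixed), 9.70 (male) and 35.9 (female) FPKM in KO libraries, against 2.91 (mixed), 10.8 (male) and 1.53 (female) FPKM in WT libraries. These values rest on an estimated 161, 207 and 697 fragments in the KO and 17, 264 and 28 fragments in the WT libraries. The WT male library again stood above the KO male library, and the change of 2.15 ± 0.53 (SE) had an adjusted p of 0.094 in limma. Without the WT male library both genes passed, Serpina3g at 2.79 (adjusted p = 0.0091) and Serpina3n at 1.80 (adjusted p = 0.039, limma). They passed likewise without the KO male library, at 2.67 and 1.78 (adjusted p = 0.013 and 0.031). Without the WT mixed library they passed at 1.99 and 1.29 (adjusted p = 3.7e-06 and 0.0061). There limma set 3 residual degrees of freedom of each gene against a median of 136.75 prior ones taken from all genes (8.97 with all libraries). The variance used was thus almost wholly that of all genes, so these p-values say little about the spread of either gene. Without the WT female library Serpina3g passed, at 1.68 (adjusted p = 0.029). It did not pass without the KO mixed library (2.02, adjusted p = 0.26) or the KO female library (adjusted p = 0.42, the highest of the 6 such fits). Serpina3n did not pass without the KO mixed (1.27, adjusted p = 0.36), KO female (1.12, adjusted p = 0.51) or WT female library (1.09, adjusted p = 0.11, limma). The calls over all genes also moved between these fits, from 126 with all libraries. They were 81 without WT male, 105 without KO male, 433 without WT mixed, 542 without WT female, 44 without KO mixed and 40 without KO female.

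Serpina3f and Serpina3h separated the genotypes in all 6 libraries at low levels. Serpina3f had 5.02 (mixed), 1.89 (male) and 1.78 (female) FPKM in KO libraries, against 0.777 (mixed), 0.660 (male) and 0.605 (female) FPKM in WT libraries. The lowest KO value, that of the female pool, rests on an estimated 44 fragments, against 14 in the WT female library. The highest WT value, that of the mixed pool, rests on an estimated 6 fragments. The change of Serpina3f, 1.12 ± 0.30 (SE), had an adjusted p of 0.13 in limma. Serpina3h, annotated by RefSeq as a transcribed pseudogene, had 2.79 (mixed), 3.47 (male) and 8.09 (female) FPKM in KO libraries, against 0.913 (mixed), 2.02 (male) and 0.820 (female) FPKM in WT libraries. The estimated fragments of Serpina3h were 12, 49 and 103 in KO and 4, 32 and 10 in WT libraries (mixed, male, female). Its groups did not overlap, and its change of 1.29 ± 0.34 (SE) had an adjusted p of 0.13 in limma. Both passed without the WT mixed library, at 1.16 and 1.19 (limma adjusted p = 0.0042 and 0.0086), a fit that called 433 of all genes. That fit drew its variances almost wholly from all genes together. Over the 6 fits that leave out a library the adjusted p of Serpina3f and Serpina3h reached 0.34 and 0.44.

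Serpina3i and Serpina3m were the faintest of the 6. Serpina3i had 0.780 (mixed), 0.865 (male) and 1.22 (female) FPKM in KO libraries, against 0 (mixed), 0.678 (male) and 0.0403 (female) FPKM in WT libraries. These values rest on an estimated 6, 23 and 29 fragments in the KO and 0, 21 and 1 fragments in the WT libraries. Serpina3i reached the filter through the KO libraries alone, and its WT mixed value is a listed 0. The groups did not overlap, and its change of 0.69 ± 0.24 (SE) had an adjusted p of 0.29 in limma. Serpina3m had 0.726 (mixed), 0.566 (male) and 4.10 (female) FPKM in KO libraries, against 0.775 (mixed), 2.12 (male) and 0.0529 (female) FPKM in WT libraries. The groups of Serpina3m overlapped in part, with the highest library in KO and the next and the lowest in WT (log2 change 0.41 ± 0.44 SE, adjusted p = 1.0). The KO female library was the highest of the 6 in 5 of the 6 Serpina3 genes, and the WT male library was the highest WT library in 5. KO lay above WT for 5 of the 6 genes among mixed, for 3 among male and for 6 among female pools. Of all genes, 27.6, 23.8 and 87.3% did in these pools.

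**Figure D3:**
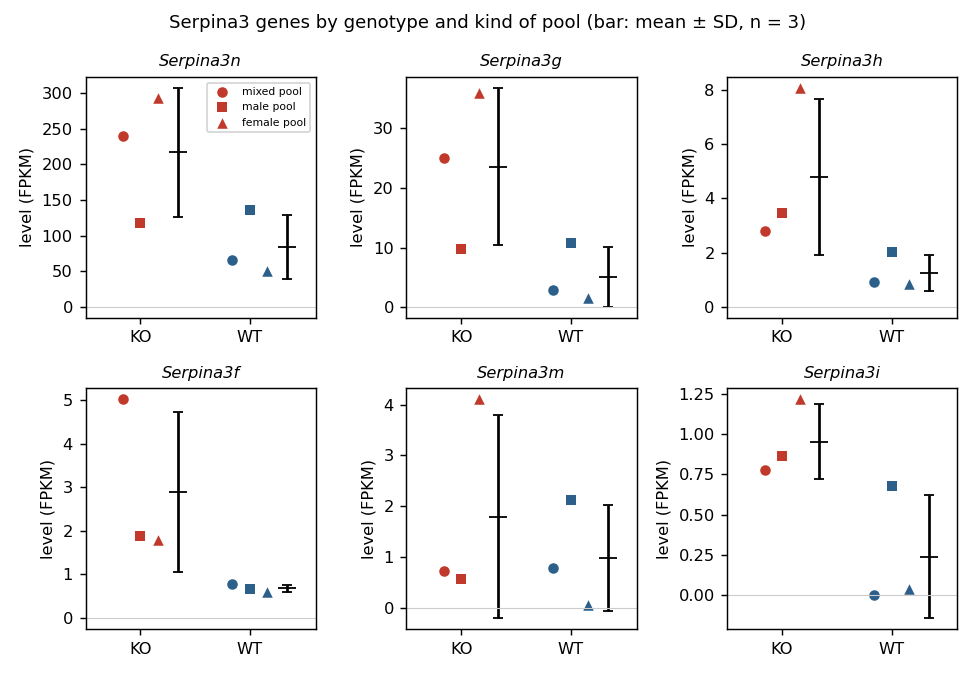
Level in FPKM of the 6 tested Serpina3 genes, with KO left of WT in each panel; symbols are single libraries by kind of pool and bars are mean ± SD (n = 3). In Serpina3n and Serpina3g the WT male library lies above the KO male library, and in Serpina3f, Serpina3h and Serpina3i all KO libraries lie above all WT libraries.

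Copies of a recent gene family can share fragments, so the transcripts were compared by windows of 101 bases, the read length. Only exact matches to annotated transcripts were counted, so fragments shared between copies that differ by a few bases are not covered. Of the windows of the longest GENCODE transcript, 0.153% in Serpina3n, 4.46% in Serpina3g, 3.49% in Serpina3f, 4.04% in Serpina3h, 2.29% in Serpina3i and 5.97% in Serpina3m also occurred in a transcript of another gene. For Serpina1a and Serpina1c of the alpha-1 antitrypsin genes the shares were 49.7 and 69.2%, so single values of those genes are uncertain. The NMRI strain can differ in sequence and copy number from the reference, which was not examined.

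Markers of other cell types were set beside the Serpina3 genes. All 12 macrophage and antigen-presenting markers tested had a positive change and 11 an unadjusted p under 0.05, with 0 past the adjusted threshold, and their summed level was 1048 to 1294 FPKM in KO and 543 to 1052 FPKM in WT libraries. The highest WT sum was again that of the male pool. The eosinophil markers summed to 33.1 to 38.6 FPKM in KO and 3.56 to 13.9 FPKM in WT libraries, with 4 of 4 tested positive and 2 of them, Ear1 and Ear2, past the threshold. The squamous epithelium markers summed to 38.2 to 132 FPKM in KO and 8.50 to 13.5 FPKM in WT libraries, with Crnn at 0 throughout and 2 of the 6 tested, Sprr1a and Sprr3, past the threshold. The gland and secretory markers had 12 of 14 tested positive, 4 of them with an unadjusted p under 0.05, a median change of 0.45 and 0 calls. Their sums were 26029 to 62456 FPKM in KO and 23696 to 76228 FPKM in WT libraries, a full overlap. In the female pools the KO sum was the lower one. The part of these cells in the Serpin values was not tested, and in bulk tissue fewer cells of a type and less RNA per cell cannot be told apart. Hepatocyte markers, which would come with plasma serpins of the liver, summed to 1.71 to 2.99 FPKM in KO and 0.833 to 3.36 FPKM in WT libraries, with Apoa2, Fgb and Fgg at 0.

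The other tested genes of clade a were low. Serpina1b, an alpha-1 antitrypsin gene, had 0.919 (mixed), 0.585 (male) and 0.921 (female) FPKM in KO libraries, against 2.14 (mixed), 0.830 (male) and 1.15 (female) FPKM in WT libraries, and the groups overlapped (log2 change -0.36 ± 0.25 SE, adjusted p = 0.87). Serpina9, known from germinal centre B cells in humans, ran from 0.590 to 1.12 FPKM in KO and from 0.173 to 0.642 FPKM in WT libraries (adjusted p = 0.67). The remaining genes of clade a that were above 0 somewhere, among them Serpina12 and the carriers Serpina6 and Serpina7, had means of at most 0.2997 FPKM. Clade a summed to 253 ± 108 FPKM in KO and 94.6 ± 52.6 FPKM in WT (SD, n = 3 each), at 371, 87.97 and 633% of WT in mixed, male and female pools (exact two-sided permutation p = 0.2).

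Clade b, the intracellular serpins, was carried by Serpinb11 and Serpinb6a, which did not differ between the genotypes beyond the spread of the pools. Serpinb11, whose mouse protein inhibits trypsin-like proteases, had 66.5 (mixed), 87.2 (male) and 98.2 (female) FPKM in KO libraries, against 66.0 (mixed), 116 (male) and 83.5 (female) FPKM in WT libraries. Its change was -0.05 with a 95% interval from -0.61 to 0.50. Serpinb6a, an inhibitor of cathepsin G, had 49.9 (mixed), 56.3 (male) and 76.4 (female) FPKM in KO libraries, against 63.5 (mixed), 66.9 (male) and 59.6 (female) FPKM in WT libraries. The KO libraries lay on both sides of the WT libraries, and the interval ran from -0.57 to 0.41. The whole clade summed to 189 ± 36.1 FPKM in KO and 191 ± 31.3 FPKM in WT (SD, n = 3 each, exact two-sided permutation p = 0.9).

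Serpinb1a, the inhibitor of neutrophil elastase, cathepsin G and proteinase 3, was the gene of clade b with the largest positive change. It had 12.6 (mixed), 10.1 (male) and 17.2 (female) FPKM in KO libraries, against 7.36 (mixed), 7.80 (male) and 5.42 (female) FPKM in WT libraries. Every KO library lay above every WT library, and the KO level was 171, 130 and 318% of WT in mixed, male and female pools. The change of 0.85 ± 0.27 (SE) had an adjusted p of 0.24, and 0.041 and 0.0395 with the libraries scaled to one upper quartile or by median ratios (limma). Neither of its target proteases Ctsg and Elane passed. Ctsg had 0.270, 0.243 and 0.740 FPKM in KO libraries (mixed, male, female), against 2.63, 1.57 and 0.663 FPKM in WT libraries (mixed, male, female) (log2 change -0.83 ± 0.28 SE, adjusted p = 0.29), and Elane overlapped (-0.41 ± 0.44 SE, adjusted p = 1.0). Of the neutrophil markers 9 of 10 had a negative change, with sums of 189 to 425 FPKM in KO and 242 to 441 FPKM in WT libraries. This marker list includes the target proteases Ctsg, Elane and Prtn3, so it is not separate from them.

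Serpinb7, also called megsin, was the gene of clade b with the largest negative change. It had 8.32 (mixed), 10.2 (male) and 16.4 (female) FPKM in KO libraries, against 16.6 (mixed), 19.6 (male) and 22.2 (female) FPKM in WT libraries. The highest KO library lay just below the lowest WT library, and KO was 50.1, 52.1 and 73.8% of WT in mixed, male and female pools. The change of -0.74 ± 0.27 (SE) had an adjusted p of 0.35 in limma. Serpinb7 and Serpinb11 are both on chromosome 1, where 14 of the 63 genes lie, while Serpinb1a, Serpinb1b, Serpinb6a, Serpinb6b and Serpinb9 are among the 15 on chromosome 13.

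The other 5 tested genes of clade b were at most 8.24 FPKM in every library. Serpinb1b, a copy of the elastase inhibitor, ran from 6.89 to 8.24 FPKM in KO and from 3.27 to 6.20 FPKM in WT libraries with no overlap (log2 change 0.48 ± 0.28 SE, adjusted p = 0.74). Serpinb9, the inhibitor of granzyme B, ran from 3.54 to 4.12 FPKM in KO and from 3.12 to 3.28 FPKM in WT libraries, also with no overlap (0.21 ± 0.24 SE, adjusted p = 1.0). Serpinb6b (0.55 ± 0.27 SE), Serpinb8 (0.37 ± 0.25 SE) and Serpinb5 or maspin (0.01 ± 0.20 SE) overlapped between the genotypes. The squamous cell genes Serpinb3a to Serpinb3d, Serpinb12 and Serpinb13, known from stratified epithelia, were at most 0.326 FPKM in every library, and the same held for Serpinb2.

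Serpine2, protease nexin or glia-derived nexin, was the most abundant Serpin gene, at 29.2% of the family's summed FPKM. It inhibits thrombin and the plasminogen activators and has long been known from the rodent olfactory system. It had 167 (mixed), 151 (male) and 223 (female) FPKM in KO libraries, against 374 (mixed), 300 (male) and 217 (female) FPKM in WT libraries. The mixed and male KO libraries lay below all WT libraries, and the KO female library lay just above the WT female library. The change of -0.70 ± 0.27 (SE) had an adjusted p of 0.39 in limma, and KO was 44.8, 50.5 and 103% of WT in mixed, male and female pools. Against the median gene of its pools, at a log2 ratio of 0.48 in the female pools, the KO female library was low as well. The mature neuron markers had negative changes too, 15 of 15, 9 with an unadjusted p under 0.05 and 1, Kirrel2, past the adjusted threshold, and their part in the level of Serpine2 was not tested. The olfactory ensheathing and glial markers had 7 of 8 negative, with sums of 132 to 160 FPKM in KO and 150 to 189.5 FPKM in WT libraries.

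Serpine2 acts on the proteases of clotting. Among 14 tested genes of coagulation and fibrinolysis 0 passed, 1 had an unadjusted p under 0.05, and the median change was 0.13. That gene was Procr, the receptor of protein C, at 1.48 ± 0.16 FPKM in KO and 0.68 ± 0.28 FPKM in WT (SD, n = 3 each, log2 change 0.57 ± 0.22 SE, limma adjusted p = 0.38). F3, tissue factor, was at 57.2 ± 3.48 FPKM in KO and 43.05 ± 10.8 FPKM in WT (adjusted p = 0.71). Of the 7 tested receptors that take up serpin complexes 0 passed, with an adjusted p of 0.96 for Lrp1.

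Clades f, g, h and i were each carried by 1 gene. Serpinf1, the pigment epithelium-derived factor, which supports neurons and limits the growth of vessels, had 94.5 (mixed), 78.2 (male) and 111 (female) FPKM in KO libraries, against 75.2 (mixed), 75.1 (male) and 52.8 (female) FPKM in WT libraries. The KO male library was only just above the WT mixed library, and the change of 0.48 ± 0.24 (SE) had an adjusted p of 0.63. Serpini1, neuroserpin, which inhibits tissue plasminogen activator in neurons, had 7.54 (mixed), 6.24 (male) and 7.92 (female) FPKM in KO libraries, against 10.02 (mixed), 9.76 (male) and 9.43 (female) FPKM in WT libraries. All KO libraries of Serpini1 lay below all WT libraries, at 75.3, 63.97 and 84.05% of WT in mixed, male and female pools, and the change of -0.39 ± 0.24 (SE) had an adjusted p of 0.80. The exact two-sided permutation p of the summed level was 0.1 for clades f, h and i, the smallest that 3 against 3 libraries can give, and 0.9 for clade g.

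Serping1, the inhibitor of the complement proteases C1r and C1s, had 53.9 (mixed), 41.2 (male) and 61.7 (female) FPKM in KO libraries, against 49.3 (mixed), 65.4 (male) and 46.1 (female) FPKM in WT libraries. The order of the genotypes differed between the pools, and the change was -0.04 with an interval from -0.55 to 0.48. The complement proteases themselves did not pass in any of 4 tested genes, with C1rl at an adjusted p of 0.92 and C1s at 16.3 ± 1.97 FPKM in KO and 17.6 ± 2.11 FPKM in WT (SD, n = 3 each, limma adjusted p = 1.0). Serpinh1, or Hsp47, the chaperone of procollagen in the endoplasmic reticulum, had 73.4 (mixed), 66.2 (male) and 99.5 (female) FPKM in KO libraries, against 62.4 (mixed), 64.3 (male) and 58.4 (female) FPKM in WT libraries. Its KO libraries all lay above its WT libraries, by little in the male pools, and the change of 0.34 ± 0.23 (SE) had an adjusted p of 0.84. Of the 21 collagens and collagen-modifying enzymes, 20 had a positive change with a median of 0.49, 5 had an unadjusted p under 0.05 and 0 passed. Bone and cartilage markers had 10 of 11 positive, with sums of 752 to 1096 FPKM in KO and 497 to 601 FPKM in WT libraries, and fibroblast markers 6 of 9, with 1216 to 1937 FPKM in KO and 709 to 1332 FPKM in WT libraries. Their part in the collagen and Serpinh1 values was not tested. The fibroblast list shares Col1a1, Col1a2 and Col3a1 with the collagen list, and the bone and cartilage list shares Col2a1. The marker sums are therefore not separate from the collagen values. Col1a1 was at 578 ± 148 FPKM in KO and 255 ± 155 FPKM in WT, and Col1a2 at 589 ± 142 FPKM in KO and 298 ± 132 FPKM in WT (SD, n = 3 each, limma adjusted p = 0.21 and 0.25).

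Among the proteases and inhibitors around the family, 1 gene passed. Slpi, a secreted inhibitor of leukocyte elastase that is no serpin, had 18.6 (mixed), 11.2 (male) and 18.1 (female) FPKM in KO libraries, against 4.63 (mixed), 5.80 (male) and 3.65 (female) FPKM in WT libraries. It rose in KO by 1.56 ± 0.28 (SE) on the log2 scale (limma adjusted p = 0.020), with no overlap. The call was lost with no filter (adjusted p = 0.11), without the KO mixed library (1.44, adjusted p = 0.13) and without the KO female library (1.46, adjusted p = 0.15), in a range of 1.1e-04 to 0.15 over its alternatives. Of the 15 tested inhibitors outside the Serpin family 14 had a positive change with a median of 0.23, and Wfdc2 (1.10 ± 0.28 SE, adjusted p = 0.12) and Spint1 (0.54 ± 0.24 SE, adjusted p = 0.53) had the next lowest p-values after Slpi. Of the 10 cysteine cathepsins, some of which Serpina3g can inhibit, 9 had a positive change and 0 passed. Ctss stood at 46.8 ± 9.9996 FPKM in KO and 22.7 ± 8.09 FPKM in WT (SD, n = 3 each, limma adjusted p = 0.12). Ctsk was at 111 ± 32.2 FPKM in KO and 72.5 ± 7.74 FPKM in WT (adjusted p = 0.50).

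The serine proteases that serpins restrain gave 0 calls. The epithelial membrane proteases had 6 of 8 tested genes positive, with Prss22 at 5.74 ± 2.57 FPKM in KO and 2.20 ± 0.84 FPKM in WT, and with Tmprss11bnl at 2.91 ± 1.13 FPKM in KO and 5.44 ± 0.77 FPKM in WT (SD, n = 3 each, limma adjusted p = 0.21 and 0.36). Of 26 kallikreins 5 were tested, among them Klk11 (log2 change 0.86 ± 0.28 SE, adjusted p = 0.26) and Klk14 (0.43 ± 0.52 SE, adjusted p = 1.0). Of 12 neutrophil and mast cell proteases 5 were tested, with a median change of -0.05, and of 9 granzymes 2, among them Gzmm at 4.93 ± 1.51 FPKM in KO and 5.09 ± 1.20 FPKM in WT. Of the genes around the hormone carriers 7 were tested, with a median of 0.03; Dio1 was at 3.99 ± 0.66 FPKM in KO and 3.39 ± 2.99 FPKM in WT, and Nr3c2 at 3.61 ± 0.93 FPKM in KO and 4.22 ± 1.05 FPKM in WT.

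**Figure D4:**
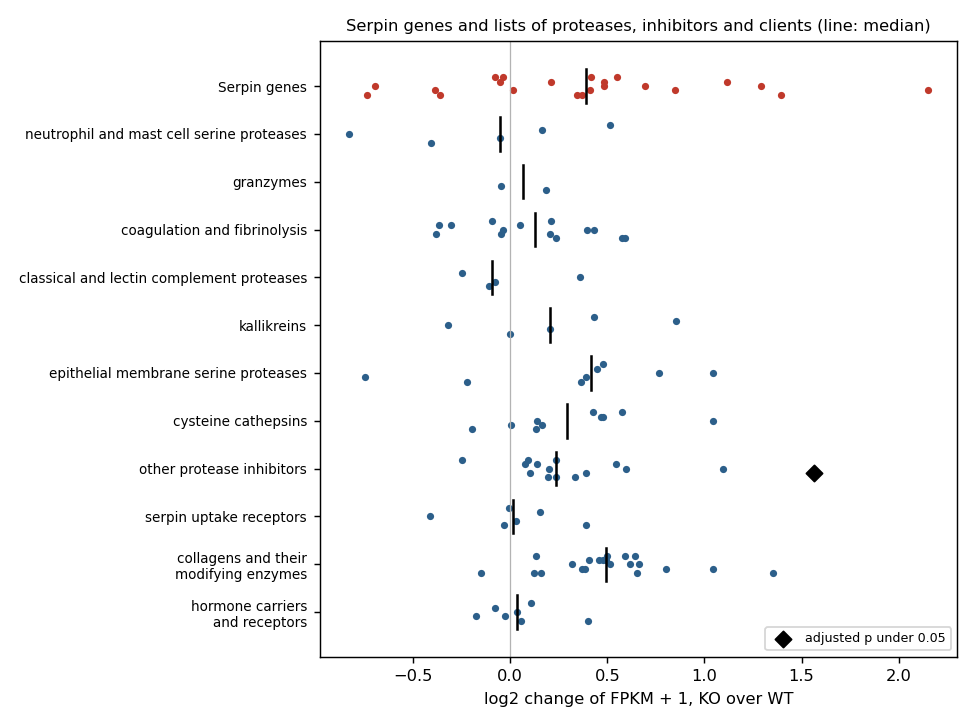
Change of tested genes in KO over WT on the log2(FPKM + 1) scale, for 22 Serpin genes (top row, red) and for 11 lists of proteases, inhibitors, receptors and clients (blue); vertical lines are medians of the genes drawn and the diamond is Slpi, the 1 gene with an adjusted p under 0.05. Serpina3g, at 2.15, lies furthest to the right.

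For Serpina3g the KO effect differed between the female and the male pools, with 1 library of each per genotype. In the fit with genotype, the female share of the pool and their product, 1 of 23 Serpin genes passed for the product (0.126% of all genes did), and it was Serpina3g. Its KO effect was larger by 4.01 ± 0.77 (SE) on the log2 scale at a fully female than at a male pool (limma adjusted p = 0.015). The effect was 35.9 FPKM in KO against 1.53 FPKM in WT in the female pools and 9.70 FPKM in KO against 10.8 FPKM in WT in the male pools. In alternatives chosen after seeing the data, the call was lost with libraries scaled to one upper quartile (3.35, adjusted p = 1.0) or by median ratios (3.33, adjusted p = 1.0) and with no filter (4.01, adjusted p = 0.75). Serpina3m (3.27 ± 0.74 SE, adjusted p = 0.091) and Serpina3n (2.74 ± 0.65 SE, adjusted p = 0.13) did not pass. Serpina3h was the only other Serpin gene with an unadjusted p under 0.05 for the product (1.75 ± 0.82 SE, adjusted p = 0.68), which made 4 of 23, where 4.15% of all genes had one. For the female share itself 0 Serpin genes passed and 0 had an unadjusted p under 0.05 in limma (0.0996% of all genes passed). With 1 library of each sex per genotype, sex cannot be told apart from any other difference between these pools.

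**Figure D5:**
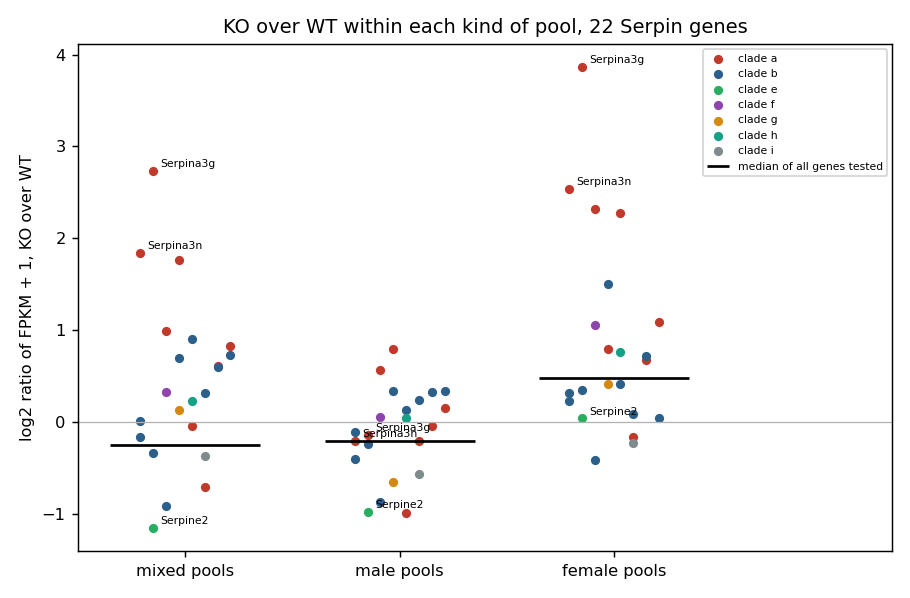
Ratio of KO over WT within each kind of pool, as log2 of FPKM + 1, for 22 of the 23 tested Serpin genes coloured by clade; black lines are the median of all genes tested (-0.25, -0.20 and 0.48). Serpina3g and Serpina3n lie far above the line in the mixed and female pools and near it in the male pools.

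Within the kinds of pool, KO lay above WT for 15 of the 23 Serpin genes in the mixed pools, where 27.6% of all genes did, and for 10 in the male pools, where 23.8% did. In the female pools it did for 20, where 87.3% of all genes did. The median log2 ratio of the 23 was 0.31 for mixed, -0.11 for male and 0.42 for female pools, against -0.25, -0.20 and 0.48 for all genes in the same pools.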

How the data were processed

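Per the labels, RNA of pooled olfactory epithelia was purified with column kits and DNase, and libraries were treated with duplex-specific nuclease, which lowers the most abundant transcripts and compresses their differences. The authors deposited 1 table of FPKM, a value for each symbol in each library. Nothing in it names that unit, which was taken from its header, its values and the tools in the submitters' processing notes (TopHat2 2.0.7, Bowtie, Cufflinks 1.3.3 and Cuffdiff, build mm9). The sources used here do not give settings or annotation. Of the columns, 1 per genotype names no sex and was read as the mixed pool, the library left over.

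Of 22310 rows, 21881 symbols were kept, with the row of highest mean for each of 221 repeated symbols. No Serpin symbol was repeated. Tests covered genes averaging 0.5 FPKM or more as log2(FPKM + 1), a scale that understates the change of low genes, by limma 3.58.1 (R 4.3.3) with its variance trend. KO and WT were compared without a block, and the female share of the pool (0, 50 or 100%) was fitted beside genotype. Every adjusted p is limma's with Benjamini-Hochberg adjustment over all genes tested, threshold 0.05. Clade sums were compared by exact permutation (scipy 1.17.1), whose smallest p is 0.1. These p-values reflect how much pools vary, which may be partly technical, and whether an animal is in more than 1 pool is not stated. The fit was tested on simulated data.

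Depth was estimated from 2122 genes with 1 annotated transcript of at least 1200 nt, less 150 nt for fragment ends, with GENCODE M21 lengths, so it and fragment numbers are approximate. Values in every library are given for tested Serpin genes with an unadjusted p under 0.05, for the 2 most abundant of each clade and for those nearest the filter. Serpina3m and Serpina1b were added after their values were seen. From each list around the family the genes past the threshold were named, and otherwise up to 2 of smallest p with a mean of at least 1 FPKM. Some genes count in totals but are not reported here or drawn. The members, the 11 lists and the 19 marker lists were chosen with earlier results of these data known. Alternatives covered pseudocount, filter, scaling, prior variance, a block for the kind of pool, the female share, the mixed pools, each library and repeated symbols.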

Additional observations from a re-analysis of the deposited data

Results flagged for a closer look

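The KO effect on Serpina3g differed between the female and the male pools. The product of genotype and female share was 4.01 on the log2 scale (limma adjusted p = 0.015), with adjusted p-values from 3.8e-04 to 1.0 over the 8 alternatives tried. The fit leaves 2 residual degrees of freedom, and the difference rests on 1 male and 1 female library per genotype and on the mixed pools between them.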

How the results depend on the processing

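Against 126 genes with a limma adjusted p under 0.05 among all genes, the count was 30 with no filter, 241 and 261 with libraries scaled to one upper quartile or by median ratios, 440 with a replicate block for the kind of pool, 209 with the female share as a covariate, 348 without the mixed pools and 40 to 542 with 1 library left out. Serpin genes called, 0 as reported, were 1 under either scaling (Serpinb1a), 4 under the block (Serpina3f, Serpina3g, Serpina3h and Serpina3n, adjusted p from 6.0e-07 to 0.0049), 2 with the female share, 3 without the mixed pools and 0 to 4 with 1 library left out. Calls among the genes of the 11 lists, 1 as reported, were 0 with no filter, 6 under the block, 4 without the mixed pools and 0 to 6 with 1 library left out. With no filter the median change of the Serpin genes was 0.024. Under the block and without the mixed pools limma's prior degrees of freedom were infinite, beside 2 residual ones. The variance used for each gene there came from all genes together, so the small p-values do not measure a gene's own spread. For the product of genotype and female share, whose alternatives were chosen after seeing the data, 1 Serpin call became 0 with no filter and under both scalings and 2 with a filter of 2 FPKM.

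The sign turned for Serpinb6a without the mixed pools (0.0545) and for the KO minus WT sum of clade b without Serpinb11 (1.90 FPKM) and without the mixed pools (0.117 FPKM). With 1 library left out the log2 change ran from -0.24 to 0.16 for Serpinb11, -0.25 to 0.0517 for Serpinb6a and -0.16 to 0.12 for Serping1, and the KO minus WT sum from -22.0 to 14.6 FPKM for clade b and -6.02 to 4.62 FPKM for clade g. The cause was not tested.

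The other Serpin genes named for a p under 0.05 or for their abundance kept their direction under each alternative. The deviations of the KO and WT libraries of 1 kind of pool correlated at 0.358 (mixed), 0.206 (male) and -0.092 (female), and 3 of 6 libraries correlated best with their own kind, so the kind of pool was not taken as a pairing. Depth limits the mixed libraries, where 1 fragment at 1 kb is worth 0.257 FPKM in KO and 0.282 FPKM in WT, and so the Serpin genes under 1 FPKM.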

Other observations

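The remaining marker lists describe the tissue around the Serpin genes, by summed FPKM per library and limma calls. All 8 horizontal basal cell markers had a positive change (92.0 to 148 FPKM in KO, 49.9 to 83.0 FPKM in WT), as had all 9 endothelial markers (52.7 to 73.9 FPKM in KO, 34.8 to 49.6 FPKM in WT), and 0 of either list passed. Of the B and plasma cell markers 6 of 7 tested had a positive change and 1, Igj, passed (341 to 604 FPKM in KO, 131 to 247 FPKM in WT). Mast cell markers summed to 25.8 to 37.2 FPKM in KO and 20.4 to 28.96 FPKM in WT, and cytotoxic lymphocyte markers to 2.65 to 3.502 FPKM in KO and 1.61 to 2.49 FPKM in WT, with 0 passing.

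Sustentacular cell markers split, with 4 of 9 positive (2252 to 4489 FPKM in KO, 2918 to 4328 FPKM in WT), as did immature neuron markers, with 4 of 10 positive (402 to 623 FPKM in KO, 366 to 836 FPKM in WT), and multiciliated cell markers, with 3 of 5 positive (175 to 253 FPKM in KO, 137 to 205 FPKM in WT). All 7 erythroid markers had a negative change (409 to 496 FPKM in KO, 354 to 2521 FPKM in WT), with the WT male library at the top. None of these 4 lists held a gene that passed; at an unadjusted p under 0.05 there were 1 sustentacular and 2 erythroid markers, all lower in KO.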
